A study of Arabidopsis thaliana with 18 samples.

Results

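Expression of 6 genes used as senescence markers and regulators in Arabidopsis thaliana was followed across all 18 libraries of a heat and recovery experiment. The genes were ORE1 (AT5G39610) and NAP (AT1G69490), which encode NAC transcription factors, and SAG13 (AT2G29350), SAG21 (AT4G02380), RNS1 (AT2G02990) and BCB (AT5G20230). They are 6 of the 37916 genes in the deposited table. They were chosen by name with measured values of these same libraries in view, and which values decided was not recorded. Their own levels and differences are therefore a description with no test, and tests are given only for other genes.

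Leaf senescence is an ordered dismantling of cells in which chlorophyll, protein and nucleic acids are broken down and their nitrogen, phosphorus and carbon are exported. NAC factors stand near the top of this programme: ORE1 acts downstream of ethylene signalling and is held down in young leaves by the microRNA miR164, and NAP acts in abscisic acid signalling. The other genes are classic readouts that also respond to stress. SAG13 encodes a short-chain dehydrogenase/reductase, SAG21 a small late embryogenesis abundant protein of mitochondria, RNS1 a secreted S-like ribonuclease that phosphate starvation also induces, and BCB a blue copper-binding protein.

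The plants were seedlings, grown on half-strength MS medium with sucrose, and the labels give neither their age nor the hour of harvest. Wild type (WT) and a PRMT5 T-insert line (prmt5, whose allele is not named) were each sampled at 22 °C, after 3 days at 37 °C ("heat"), and after 24 h of recovery from that heat, with 3 libraries in each of the 6 groups. PRMT5 is a protein arginine methyltransferase. Levels are the authors' TPM, a share of all transcripts scaled for transcript length, from which sequencing depth cannot be read: it is unknown. Whether the 3 libraries in a group are from different plants is not stated, so p-values speak only of how far these libraries scatter, and that scatter may be technical. In whole seedlings, fewer cells of a type and less RNA per cell cannot be told apart. The PRMT5 transcript (AT4G31120) stood at 25.28 to 47.72 TPM in the 9 WT libraries and at 2.32 to 8.87 TPM in the 9 prmt5 libraries, so no library went against its label.

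The stretches before the start of SAG13, RNS1 and BCB are shown because these 3 genes had the largest differences between genotypes at recovery. They were read from the TAIR10.1 genome of RefSeq, on the strand of the gene, as the 250 bases before the annotated start (SAG13 chr2:12600664-12600913, RNS1 chr2:873256-873505, BCB chr5:6826115-6826364, all on the plus strand). Capitals mark the W-box core TTGAC, which WRKY factors bind, the ABRE core ACGTG of abscisic acid responses, and the heat shock element GAANNTTC, each on either strand.
SAG13: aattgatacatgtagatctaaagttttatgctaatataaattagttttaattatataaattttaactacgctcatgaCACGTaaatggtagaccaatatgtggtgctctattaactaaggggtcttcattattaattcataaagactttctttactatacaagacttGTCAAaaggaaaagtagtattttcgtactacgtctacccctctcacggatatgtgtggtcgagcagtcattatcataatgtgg
RNS1: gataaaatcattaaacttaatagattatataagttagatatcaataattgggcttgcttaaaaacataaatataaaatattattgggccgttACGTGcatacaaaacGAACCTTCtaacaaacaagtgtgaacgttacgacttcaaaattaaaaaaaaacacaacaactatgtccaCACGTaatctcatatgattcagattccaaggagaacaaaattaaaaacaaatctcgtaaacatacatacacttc
BCB: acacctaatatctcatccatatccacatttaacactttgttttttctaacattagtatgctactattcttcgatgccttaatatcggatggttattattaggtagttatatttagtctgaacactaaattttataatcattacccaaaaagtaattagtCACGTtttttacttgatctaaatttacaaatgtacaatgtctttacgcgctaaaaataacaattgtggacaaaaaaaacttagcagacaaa
SAG13 held 1 W-box core and 1 ABRE core, RNS1 2 ABRE cores and 1 heat shock element, and BCB 1 ABRE core. In the other 3 genes, the same window held 3 W-box cores in SAG21, 1 W-box core and 2 overlapping ABRE cores (both inside 1 G-box, CACGTG) in NAP, and none of these motifs in ORE1. Of all 27443 nuclear protein-coding genes, 44.9% had a W-box core in this window, against 3 of the 6, and 22.9% had an ABRE core, against 4 of the 6. The heat shock element occurred in 9.55% of all windows and in 1 of the 6. Of the other motifs searched, the NAC core CACG occurred in 45.6% of all windows and in 4 of the 6. The G-box occurred in 6.49% and in 1 of the 6, and the P1BS motif GNATATNC in 5.46% and in 1, ORE1. These are matches of letters, not sites of binding.

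ORE1 is the gene of the 6 with a miR164 site. The mature miR164 of MIR164a (chr2:19520770-19520790, plus strand, TAIR10.1) is shown with its seed, bases 2 to 8, in capitals, beside the best ungapped match in the coding part of ORE1 and of other NAC genes known as miR164 targets. In the gene lines, written 5′ to 3′, capitals mark letters that do not form a Watson-Crick pair with miR164, with G:U counted as unpaired.
miR164a: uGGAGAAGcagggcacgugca
ORE1: CUcacgugAccugcuucuccG
NAC1: AgcacguAcccugcuucucca
CUC1: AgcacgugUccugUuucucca
NAC100: uCUacgugcccugcuucucca
ORE1 paired at 17 of 21 positions, CUC1 at 18, and NAC1 and NAC100 at 19. MIR164b gives the same 21 letters and MIR164c shares the seed. The best match in NAP paired at 12 of 21, and in ORS1, the closest relative of ORE1, at 15. The MIR164 transcripts themselves were not analysed here.

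At recovery all 6 genes were highest in prmt5. In every one of them, the 3 prmt5 recovery libraries stood above all 15 other libraries, as the plot of levels by library shows. The ratio of mean TPM at recovery, prmt5 over WT, was 8.39 for BCB, 6.83 for SAG13, 5.52 for RNS1, 4.58 for ORE1, 2.22 for SAG21 and 1.99 for NAP. Groups that do not overlap, with prmt5 higher, were seen for 31.8% of the 21831 genes whose mean reached 1 TPM, the tested genes. Since these genes were chosen with such values known, nothing is read from 6 of 6.

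**Figure D1:**
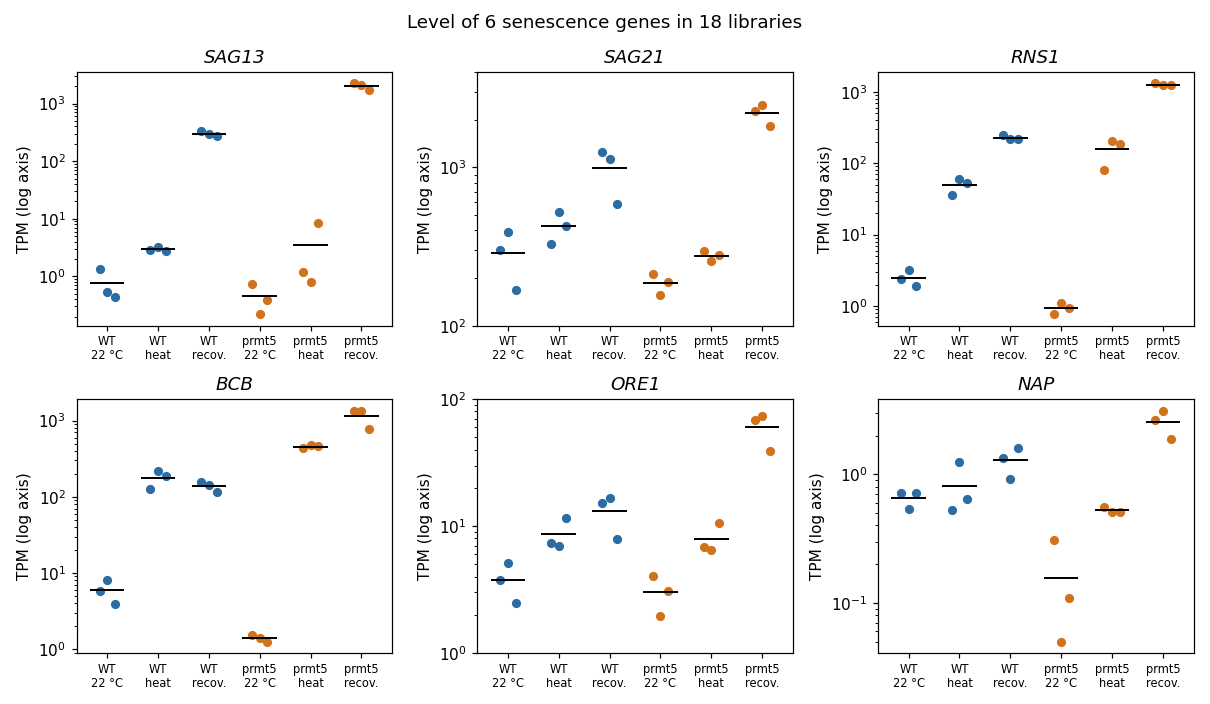
TPM of each gene (log axis) in the 3 libraries of each group, WT in blue and prmt5 in orange, with black bars at the group mean. In all 6 panels the prmt5 recovery libraries are the highest, and SAG13 spans from 0.22 to 2237.81 TPM.

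ORE1, the NAC factor that drives age-dependent leaf senescence, was expressed at low to moderate levels. It stood at 3.74, 5.12 and 2.47 TPM in WT at 22 °C, at 7.31, 7.02 and 11.51 TPM after heat, and at 15.27, 16.55 and 7.89 TPM at recovery. In prmt5 the values were 4.05, 1.97 and 3.10 TPM at 22 °C, 6.81, 6.46 and 10.60 TPM after heat, and 69.04, 73.76 and 39.18 TPM at recovery. The genotypes overlapped at 22 °C and after heat and were apart only at recovery, and WT recovery overlapped WT heat. The log2 difference of TPM + 1 at recovery, prmt5 minus WT, was 2.12 ± 0.32 (SE). Library 3 was the lowest of its group in both genotypes at recovery, and the difference was 2.41 without that of prmt5 and 1.82 without that of WT. After heat the difference was -0.10 ± 0.32 and had no stable sign: it was 0.24 after median-ratio rescaling, 0.49 under quantile normalization and between -0.30 and 0.10 with 1 library left out.

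NAP, a NAC factor of abscisic acid-linked senescence, was near the limit of what the table shows. Its mean over the 18 libraries, 0.999 TPM, fell just short of the minimum of 1 TPM, so it is the only one of the 6 that was left out of the fit across genes. WT libraries held 0.72, 0.54 and 0.71 TPM at 22 °C, 0.53, 1.25 and 0.64 TPM after heat, and 1.33, 0.92 and 1.61 TPM at recovery. The prmt5 libraries held 0.31, 0.05 and 0.11 TPM at 22 °C, 0.56, 0.51 and 0.51 TPM after heat, and 2.66, 3.13 and 1.90 TPM at recovery. The prmt5 libraries were thus below all WT libraries at 22 °C and above them at recovery. The log2 difference at recovery was 0.64 ± 0.16 with 1 added to each value, 0.95 with 0.1 added and 0.26 with 5 added.

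SAG13 had the widest range of the 6. At 22 °C it stood at 1.35, 0.54 and 0.44 TPM in WT and at 0.75, 0.22 and 0.39 TPM in prmt5. After heat WT held 2.84, 3.23 and 2.76 TPM and prmt5 1.18, 0.80 and 8.41 TPM. Library 3 of prmt5 stood apart from the other 2 there, and the log2 difference of heat from 22 °C in prmt5, 1.21 ± 0.42, was 0.46 without it. At recovery SAG13 reached 333.74, 291.27 and 272.33 TPM in WT and 2237.81, 2137.76 and 1749.32 TPM in prmt5. No library of either recovery group overlapped any library of the other 4 groups. The log2 difference of recovery from 22 °C was 7.43 ± 0.42 in WT and 10.47 ± 0.42 in prmt5.

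SAG21 was the only one of the 6 that was abundant throughout. It stood at 302.23, 392.18 and 168.45 TPM in WT at 22 °C, at 329.39, 521.05 and 424.71 TPM after heat, and at 1241.27, 1128.00 and 583.15 TPM at recovery. In prmt5 it stood at 210.82, 157.46 and 189.17 TPM, then 295.42, 257.00 and 278.16 TPM, then 2252.30, 2474.65 and 1828.59 TPM. After heat the prmt5 libraries lay below the WT libraries (log2 difference -0.59 ± 0.29), an order that was lost to overlap when TPM was rescaled by median ratios (-0.21). Under quantile normalization the difference was larger, -0.87. At recovery the order was the opposite, with a log2 difference of 1.21 ± 0.29, or 0.87 without the low WT library 3. The annotation places a microRNA gene, MIR2936, inside SAG21 on the same strand, and reads of the 2 cannot be told apart here.

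RNS1, a ribonuclease thought to salvage phosphate from RNA, separated all 6 groups. It ranged from 0.77 to 1.11 TPM in prmt5 and from 1.93 to 3.17 TPM in WT at 22 °C. After heat WT stood at 35.52, 59.08 and 52.28 TPM and prmt5 at 80.45, 204.86 and 185.69 TPM. At recovery WT stood at 245.64, 221.13 and 216.52 TPM and prmt5 at 1304.16, 1246.92 and 1223.66 TPM. The order was prmt5 and then WT at 22 °C, WT and then prmt5 after heat, and WT and then prmt5 at recovery, with no overlap between neighbours. The log2 difference between genotypes went from -0.83 ± 0.26 at 22 °C through 1.58 ± 0.26 after heat to 2.46 ± 0.26 at recovery.

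BCB, a blue copper-binding protein of the cell surface, had a different course in WT. WT libraries held 5.81, 8.20 and 3.88 TPM at 22 °C, 126.91, 218.68 and 187.40 TPM after heat, and 156.19, 140.93 and 114.68 TPM at recovery, so WT heat and recovery overlapped. The prmt5 libraries held 1.53, 1.41 and 1.26 TPM at 22 °C, 435.82, 472.66 and 459.14 TPM after heat, and 1327.82, 1352.04 and 776.80 TPM at recovery, with no overlap between any of them. The log2 difference from heat to recovery was -0.35 ± 0.24 in WT and 1.29 ± 0.24 in prmt5. Between genotypes it was -1.49 ± 0.24 at 22 °C, 1.39 ± 0.24 after heat and 3.03 ± 0.24 at recovery, the last being 3.29 without the low prmt5 library 3. The plot of genotype differences shows estimates below 0 at 22 °C and above 0 at recovery for every gene. The genotypes overlapped at 22 °C for SAG13 (-0.27 ± 0.42), SAG21 (-0.55 ± 0.29) and ORE1 (-0.24 ± 0.32). Only RNS1, BCB and NAP were thus apart in opposite directions at 22 °C and at recovery. At 22 °C the differences ran from -0.24 for ORE1 to -1.49 for BCB. Only RNS1 and BCB stood above WT without overlap already after heat.

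**Figure D2:**
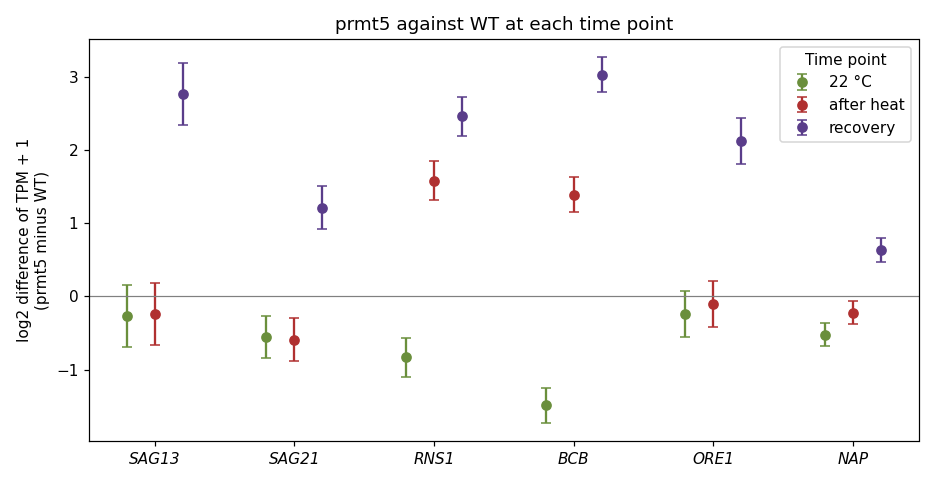
Log2 difference of TPM + 1, prmt5 minus WT, for each gene at 22 °C, after heat and at recovery, with points for the estimate and bars for ± 1 SE. All 6 points at recovery lie above 0, from 0.64 for NAP to 3.03 for BCB, while after heat only RNS1 and BCB do on the deposited scale. Under median-ratio and quantile scaling SAG13 (0.03 and 0.36) and ORE1 (0.24 and 0.49) lie above 0 after heat too.

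Set against 22 °C, 4 of the 6 genes were higher without overlap in WT after heat (all but SAG21 and NAP), where 52.3% of tested genes were. In prmt5 after heat all 6 were, against 45.1% of tested genes, although SAG13 overlapped after median-ratio rescaling. At recovery all 6 were higher than at 22 °C without overlap in WT and in prmt5, against 55.0% and 53.2% of tested genes. NAP overlapped in WT after rescaling. Between genotypes, RNS1, BCB and NAP were lower in prmt5 without overlap at 22 °C, against 22.5% of tested genes. After heat RNS1 and BCB were higher without overlap, against 21.8%, and SAG21 was lower, against 50.8%.

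Other genes of the senescence programme were tested with a list of 64 that are not among the 6: regulators, markers and enzymes of chlorophyll breakdown. This list and those that follow were also drawn up with earlier results of these libraries known, so their counts describe them and are not independent evidence of a direction. Of these, 62 passed the minimum. The counts rest on limma with an adjusted p under 0.05, over all 21831 genes. At recovery 42 of the 62 were higher in prmt5 than in WT, 7 were lower and 13 did not pass. Over all tested genes 27.8% were higher and 31.9% lower. The same shares apply to the recovery counts between genotypes in the lists below. The median log2 difference of the 62 was 0.82, against -0.04 for all tested genes.

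Among 28 tested regulators, 20 were higher and 4 lower in prmt5 at recovery. JUB1, a NAC factor known to delay senescence, stood at 130.4 ± 41.6 TPM in prmt5 and 15.8 ± 5.42 TPM in WT (SD, n = 3 each; log2 difference 2.97 ± 0.31, limma adjusted p = 1.1e-06). WRKY75, a WRKY factor that promotes senescence, stood at 189 ± 54.8 and 26.2 ± 10.4 TPM (2.84 ± 0.35, limma adjusted p = 6.6e-06). The stress NAC factors NAC019 and NAC055 differed by 2.26 ± 0.21 and 2.19 ± 0.31. Factors with opposite known roles in senescence were thus among those that were higher.

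Among 24 tested markers, 16 were higher and 1 was lower. BGLU30, a beta-glucosidase induced in the dark, had the largest difference, 95.7 ± 53.0 TPM in prmt5 against 4.56 ± 4.88 TPM in WT (log2 difference 4.30 ± 0.49, limma adjusted p = 3.1e-06). DIN11 and NHL10 differed by 2.36 ± 0.32 and 1.94 ± 0.30. The exception was SIRK, a receptor-like kinase also induced by bacterial flagellin, at 2.22 ± 1.17 TPM in prmt5 and 20.1 ± 11.8 TPM in WT (-2.57 ± 0.38, limma adjusted p = 3.1e-05). SAG12, a cysteine protease and the most specific marker of late senescence, was named after its values were seen: it was listed at 0 in all 9 WT libraries and in prmt5 at 22 °C, at 0.47, 0.77 and 1.04 TPM in prmt5 after heat, and at 0.19, 0.05 and 0 TPM in prmt5 at recovery.

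Of the 10 chlorophyll breakdown genes, 6 were higher, 2 lower and 2 did not pass. MES16, an esterase acting on chlorophyll catabolites, and NYE2, a magnesium dechelatase-related protein, were higher by 2.17 ± 0.19 and 1.38 ± 0.16. HCAR and NOL, reductases that act on chlorophyll b and its product, were lower (-1.68 ± 0.15 and -1.13 ± 0.24, limma adjusted p = 3.1e-07 and 0.0009). NYC1 of the same list was higher (0.59 ± 0.17, limma adjusted p = 0.0063), so HCAR and NOL do not stand for the whole list.

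The response from 22 °C to recovery was also compared between genotypes directly, as an interaction. The rise was larger, or the fall smaller, in prmt5 for 42 of the 62 genes and the reverse held for 3, with a median interaction of 0.89. Over all tested genes 26.1% and 20.1% passed in these directions, with a median of 0.08. Leaving out 1 library at a time kept the higher count between 37 and 42. In WT alone 48 of the 62 rose from 22 °C to recovery and 4 fell, with a median of 1.35, and 49.8% and 17.3% of all tested genes did (30.7% and 30.4% after median-ratio rescaling). In prmt5 alone 50 rose and 3 fell, with a median of 2.48, against 53.4% and 24.7% of all tested genes (40.0% and 35.9%). NAC019, NAC047, NAC087 and WRKY75 rose the most among regulators in WT, by 3.38 to 4.13, and SRG1, SWEET15, SIRK and SAG101 among markers, by 2.96 to 3.36. In prmt5 the largest rises were 6.41 for WRKY75 and 6.20 for NAC019 among regulators, 6.13 for BGLU30 and 5.91 for the sugar exporter SWEET15 among markers, and 4.11 for CYP89A9 among chlorophyll genes.

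**Figure D3:**
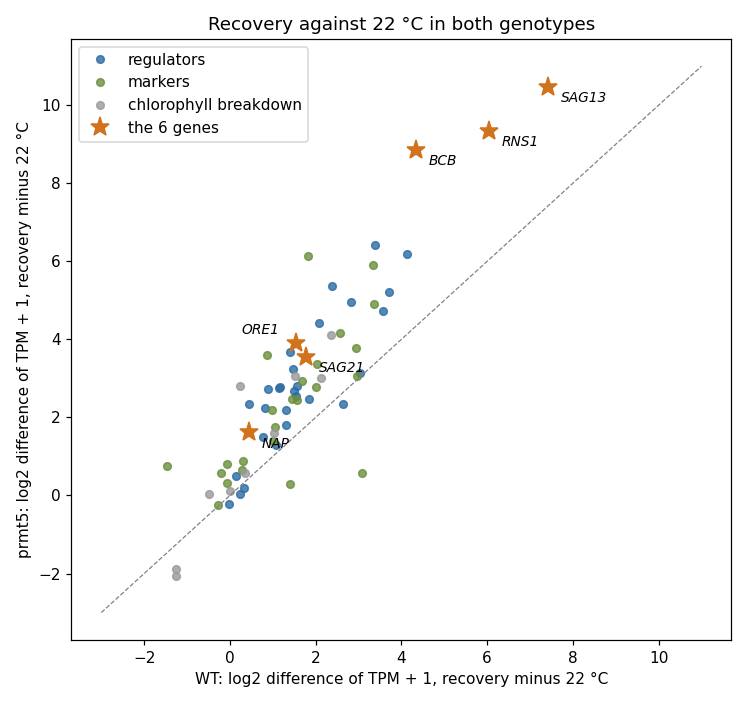
Log2 difference of TPM + 1 from 22 °C to recovery in WT (horizontal) and prmt5 (vertical), for tested regulators, markers and chlorophyll breakdown genes (circles) and the 6 genes (stars), with a dashed line of equal response. The 6 stars and most circles lie above the line, and SAG13 lies at 7.43 in WT and 10.47 in prmt5.

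After heat the wider set was split. Median-ratio rescaling also shifts the common level: it moved the median of all genes from 0.35 to 0.01 for WT heat, from 0.35 to 0.02 for WT recovery and from 0.45 to 0.07 for prmt5 recovery, each against 22 °C. From 22 °C, 36 of the 62 genes rose and 13 fell in WT (all tested genes 49.8% and 25.7%, or 37.4% and 37.2% after rescaling), and 36 rose and 17 fell in prmt5 (45.5% and 36.0%). Between genotypes after heat 19 were higher and 25 lower in prmt5, against 19.9% and 48.3% of all tested genes. Median-ratio rescaling, which moved the median of all genes from -0.34 to -0.02, turned this to 27 higher and 16 lower (all tested genes 33.4% and 33.8%), so no direction is given. MYB2 was higher in prmt5 by 2.70 ± 0.26, JUB1 by 1.93 ± 0.31 and the chlorophyll-degrading PPH by 1.19 ± 0.12, while WRKY70 was lower (-2.27 ± 0.24), as were PPDK (-2.09 ± 0.16) and NOL (-2.13 ± 0.24). The interaction of genotype with heat was higher for 17 and lower for 15 genes (all tested genes 18% and 33.3%), or 24 and 11 after rescaling (27.2% and 26.0%).

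At 22 °C 1 of the 62 genes was higher and 8 were lower in prmt5, against 3.64% and 11.3% of all tested genes. After rescaling the counts were 4 and 6, and for all tested genes 9.18% and 7.59%. The gene that was higher was ASN1, an asparagine synthetase induced in the dark, at 1.84 ± 0.555 and 0.0900 ± 0.0346 TPM (log2 difference 1.37 ± 0.28, limma adjusted p = 0.0052). CYP89A9 and HCAR were lower (-0.94 ± 0.18 and -0.89 ± 0.15), as was the NAC factor RD26 (-0.75 ± 0.17), whose call was lost when only these 2 groups were fitted.

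Genes reported as targets of ORE1 or NAP came next, 13 of them tested. At recovery 8 were higher in prmt5, 2 were lower and 3 did not pass, with a median of 0.88. Several are also counted among the 62. ACS2, an enzyme of ethylene synthesis, had the largest difference, 56.1 ± 26.1 TPM against 2.87 ± 1.70 TPM (log2 difference 3.86 ± 0.31, limma adjusted p = 1.1e-07). HAI1, a protein phosphatase under NAP, SWEET15 and VNI2, a NAC repressor of senescence, were higher by 1.60 ± 0.20, 1.49 ± 0.31 and 1.47 ± 0.12.

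Of the 9 tested NAC relatives of ORE1 and NAP, 5 were higher in prmt5 at recovery and 4 did not pass. They were NAC058 (2.04), ORS1 (1.51), NAC087 (1.29), NARS2 (0.84) and NAC046 (0.77, a call lost without prmt5 recovery library 1). ORS1, like ORE1 a promoter of senescence, stood at 34.2 ± 1.48 TPM in prmt5 and 11.4 ± 0.919 TPM in WT. Of the 5 other NAC genes with a miR164 site, 1 was lower and 4 did not pass, and NAC080 and NAC100 are counted in both lists. NAC1, which pairs with miR164 better than ORE1 does, differed by 0.27, NAC080 by -0.02 and NAC100 by -0.06. The signs of NAC080 and NAC100 changed with scaling or with 1 library left out. CUC1 was lower (-0.66 ± 0.23, limma adjusted p = 0.02), a call lost in 5 of its alternatives. All 5 had risen from 22 °C to recovery in prmt5, and 4 of 5 in WT.

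**Figure D4:**
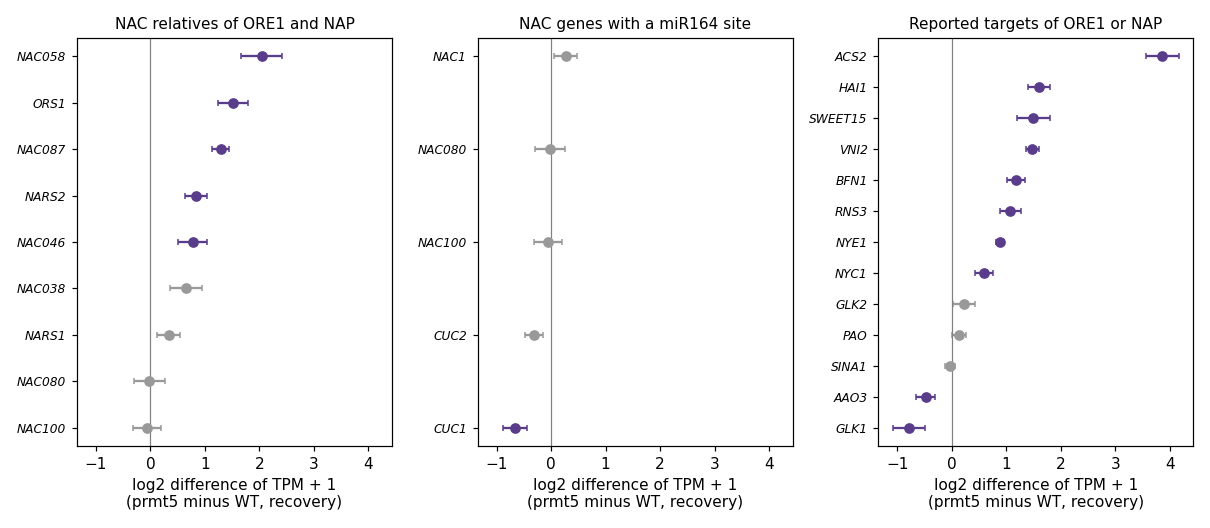
Log2 difference of TPM + 1 at recovery, prmt5 minus WT, with bars of ± 1 SE, for NAC relatives, NAC genes with a miR164 site and reported targets of ORE1 or NAP. Purple points passed an adjusted p of 0.05 and grey points did not, and in the middle panel only CUC1 passed.

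Of 14 tested genes known to act on ORE1 or NAP, 5 were higher and 1 was lower in prmt5 at recovery, with a median of 0.09. Over all tested genes the shares were 27.8% and 31.9%, so no direction is read from this count. The clock genes CCA1 and PRR9, which regulate ORE1, had the largest differences. CCA1 stood at 50.5 ± 5.44 TPM in prmt5 and 4.69 ± 0.845 TPM in WT (log2 difference 3.18 ± 0.17, limma adjusted p = 4.1e-09) and PRR9 at 14.4 ± 2.23 and 1.43 ± 0.219 TPM (2.66 ± 0.14, limma adjusted p = 2.8e-09). Both cycle over the day, and the hour of harvest is not given, so phase and level cannot be told apart. ATAF1 (1.09 ± 0.09) and NLA, a ubiquitin ligase that marks ORE1 for degradation (0.73 ± 0.10), were also higher. So was EIN3 (0.61 ± 0.06), while EIL1 was the 1 lower gene (-0.45 ± 0.10).

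SAG13 lies in an array of related reductase genes on chromosome 2, and its relatives were mixed. The 14 relatives listed are not all in the array: AT2G30670, for example, lies 468.18 kb away. Of these 14, 12 were tested: at recovery 2 were higher and 8 lower in prmt5 than in WT, with a median of -0.80. AT2G29170, at -59.26 kb from the start of SAG13, was higher, at 19.1 ± 2.13 against 3.59 ± 1.03 TPM (log2 difference 2.15, limma adjusted p = 3.2e-06). The gene 2.85 kb downstream, AT2G29360, stood at 45.8 TPM in prmt5 and 39.6 TPM in WT, and AT2G29340, at -3.9 kb, at 91.2 and 56.5 TPM (log2 difference 0.71, a call lost without any of 3 libraries). AT2G29370, 5.1 kb downstream, was lower in prmt5, at 1.56 ± 0.595 against 7.90 ± 0.338 TPM (-1.82, limma adjusted p = 0.00043). AT2G29290 fell from 22 °C to recovery by 3.29 on the log2 scale in WT and by 3.97 in prmt5. None of 49 windows of 50 bases along the SAG13 exons occurred elsewhere in the genome, and the same held for the other 5 genes (35 to 48 windows each).

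**Figure D5:**
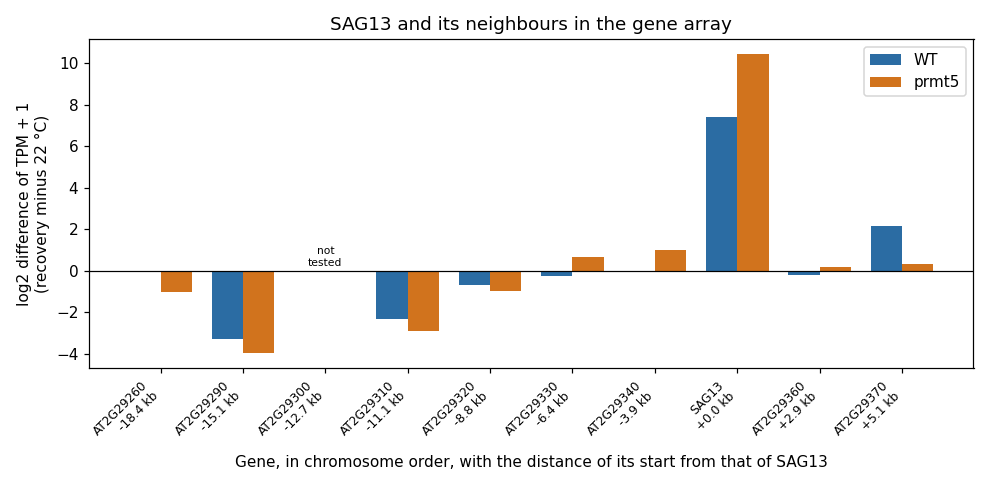
Log2 difference of TPM + 1 from 22 °C to recovery for SAG13 and its neighbours in chromosome order, WT in blue and prmt5 in orange, with each gene's distance in kb from SAG13. SAG13 reaches 7.43 and 10.47, while AT2G29290 lies at -3.29 and -3.97.

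Relatives of the other markers were mixed. Of the ribonucleases, RNS3 was higher in prmt5 at recovery (129 ± 9.03 against 60.8 ± 6.04 TPM, log2 difference 1.07), as was the vacuolar RNS2 (81.0 against 60.2 TPM, 0.42), and RNS5 did not pass. Of 6 tested relatives of BCB, 1 was higher, 2 were lower and 3 did not pass. ARPN, a plantacyanin, rose from 22 °C to recovery by 2.50 in WT and 3.19 in prmt5. Both tested relatives of SAG21 did not pass.

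Stress conditions that also raise these markers were set beside them with a list each. Of 12 tested phosphate starvation genes, 5 were higher and 2 lower at recovery, with a median of 0.21. The phosphate sensors SPX1 (1.19) and SPX3 (0.97) were higher, while the non-coding RNA AT4 was lower (-1.05). All 5 genes known to respond broadly to reactive oxygen were higher by limma, with a median of 2.58. UPOX differed least (0.37 ± 0.14). It was already higher in prmt5 at 22 °C (1.19 ± 0.14), and its rise to recovery was smaller in prmt5 (interaction -0.82, limma adjusted p = 0.0043). TI1, a trypsin inhibitor, stood at 2170 ± 101 TPM in prmt5 and 364 ± 38.2 TPM in WT (log2 difference 2.58 ± 0.28). Of 9 root markers, 2 were lower and 7 did not pass. Their summed level at 22 °C was 1295 to 3173 TPM in WT and 1599 to 2094 TPM in prmt5. Most of this sum was PYK10, with means of 2388 TPM in WT and 1789 TPM in prmt5. At recovery the sum was 985 to 1768 TPM in WT and 1477 to 1604 TPM in prmt5, and after heat 91.0 to 157 and 85.3 to 99.1 TPM, with none of the 9 at 0 in all libraries of a group. From 22 °C to heat 7 of the 9 fell in WT and 6 in prmt5. PYK10 changed by -4.94 in WT and -5.32 in prmt5 (log2), but SHR only by -0.24 and 0.14 and SCR by -0.39 and -0.40. The 5 seed markers summed to 9.49 to 41.8 TPM in WT after heat, 2.95 to 5.54 TPM in prmt5 after heat and 0.15 to 1.22 TPM in the other groups. Of them, CRC and SESA1 were listed at 0 in WT at 22 °C, SESA1 in prmt5 at 22 °C, CRA1 and OLEO1 in WT at recovery and CRC in prmt5 at recovery. After heat most of the seed sum was SESA1, at 19.5 ± 16.8 TPM in WT and 2.92 ± 0.992 TPM in prmt5. The part of root and seed markers in the differences was not tested.

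The genes whose levels ran closest to each of the 6 were taken from 7372 named genes with a mean of at least 5 TPM, by Pearson correlation of log2(TPM + 1) over the 18 libraries, which share the 6 groups. For SAG13 they were UGT87A2 (r = 0.990), NIT2 (0.989) and NAC019 (0.987), and for SAG21 AHL1 (0.988), STOP1 (0.987) and SLAH3 (0.981). NIT2, a nitrilase, went from 6.02 to 180 TPM in WT and from 8.93 to 867 TPM in prmt5 between 22 °C and recovery. RNS1 ran closest to NAC047 (0.988), AMY1 (0.987) and ELI3-2 (0.986), and BCB to PP2CG1 (0.993), XTH24 (0.991) and OBF5 (0.990). For ORE1 they were XTH30 (0.980), ERF-1 (0.976) and GLYI7 (0.973), and for the low NAP EXGT-A3 (0.944), TRP1 (0.943) and NSL1 (0.942).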

How the data were processed

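Polyadenylated RNA of seedlings was sequenced in 18 libraries of 6 groups, named by the labels. The submitters' processing notes name RSEM and the TAIR10 build, without a version. The authors deposited TPM values for 37916 genes. TPM keeps no depth, so depth is unknown and neither counting intervals nor count models were used.

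Log2(TPM + 1) of the 21831 genes with a mean of at least 1 TPM was fitted with limma 3.58.1 in R 4.3.3 (6 group means, 12 residual degrees of freedom, variance trend). Tests were two-sided, and Benjamini-Hochberg adjustment ran over all these genes in each comparison (threshold 0.05). Differences of log2(TPM + 1) understate changes of low genes. Those of NAP come from a fit with no minimum. The fit was also run on data simulated with its own residual spread, with shifts in higher genes only. That run cannot test the assumptions of the fit or its behaviour for low genes. Python 3.11.15 and pandas 2.3.3 were used for tables.

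The 6 genes and 15 lists (159 genes, 156 in the table) were chosen with earlier results of these data known. Named are the 6 genes, up to 4 genes a list with the largest differences past the threshold in a comparison, relatives, and the 3 genes closest to each of the 6. Some others, such as UPOX, NYC1, EIN3 and EIL1, were named after their values were seen. Sequences and neighbours come from RefSeq's TAIR10.1, matched by gene identifier, with coordinates of that annotation. The alternatives were other pseudocounts, minimums and scalings, fits of the compared groups alone, a block for the replicate number, and the omission of single libraries.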

Additional observations from a re-analysis of the deposited data

Results flagged for a closer look

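Responses that differed between the genotypes by a test of the difference itself, the interaction in limma, are given as values. From 22 °C to recovery, 42 of the 62 other senescence genes had a higher and 3 a lower response in prmt5. After heat the numbers were 17 and 15. Among all tested genes on the deposited scale, a higher response was more common than a lower one at recovery and less common after heat. The shares are given with the interaction counts in the Results. The heat counts of the list moved apart under median-ratio rescaling, so no direction is read from them. Of 47 list genes picked for the genotypes at recovery, by size of difference or as relatives, the interaction was higher in prmt5 for 33. For 4 of them it was lower (SIRK, HCAR, AT2G29370 and AT1G07440), and for 10 it did not pass. The genotype difference at recovery, by which many of the 47 were picked, is itself part of this interaction. The choice therefore favoured large interactions, and nothing is read from the 33. UPOX, not among these 47, also had a lower interaction (-0.82). The interaction was (log2) 4.30 for BGLU30, 3.92 for CCA1, 3.83 for ACS2, 3.03 for WRKY75, 2.98 for JUB1, 2.73 for NHL10, 2.57 for SWEET15, 2.56 for MES16, 2.38 for PRR9, 2.16 for NAC058 and 1.75 for CYP89A9, the last named for recovery against 22 °C. For SIRK it was -2.49 and for HCAR -0.79.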

How the results depend on the processing

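Of 276 alternative values for the 18 counts over the 62 genes, 259 stayed within 1.5 times. The counts at recovery between genotypes, 42 higher and 7 lower, did so in all alternatives run. Of 1516 alternative values for 104 differences of named genes, 1495 kept direction and call, 11 lost the call (NAC046, CUC1, AT2G29340, RD26 and the HCAR interaction) and 10 changed sign. The cause was not tested for any of these. Median-ratio scaling gave 7 genes lower in WT recovery, quantile normalization 8 (4 as deposited), and for prmt5 recovery quantile normalization gave 5 (3). Genes higher in prmt5 at 22 °C (1) became 4 with a pseudocount of 0.1 or median-ratio scaling, 2 with quantile normalization and 0 with a minimum of 5 TPM, where limma tested fewer genes. Genes lower there (8) became 4 with quantile normalization and 3 with only the groups compared. Lower genes after heat (25) became 16 under either scaling, and the recovery interaction had 1 lower (3) at a minimum of 5 TPM. Leaving out 1 library at a time moved the counts at 22 °C between 1 and 2 higher and between 4 and 13 lower. Without prmt5 library 3 the lower count was 13, and without WT library 1, WT library 2 or prmt5 library 2 it was 5, 4 and 5. For the 6 genes, 87 of 952 alternative values moved by more than the spread, 32 with a pseudocount of 5, 28 with one of 0.1, 14 with median-ratio scaling and 13 with quantile normalization. Among them was the genotype difference at recovery for RNS1 under median-ratio scaling (2.54) and of NAP with pseudocounts of 0.1 (0.95) and 5 (0.26).

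Among the 6 genes signs changed in 6 values, all of heat. With libraries left out, the heat interaction ran from -0.72 to 0.47 for SAG13, from -0.30 to 0.30 for SAG21 and from -0.07 to 0.35 for ORE1. The genotype difference after heat ran from -0.99 to 0.20 for SAG13 and from -0.30 to 0.10 for ORE1, and was 0.03 and 0.24 with median-ratio scaling and 0.36 and 0.49 with quantile normalization. NAP in WT after heat turned from 0.11 to -0.06 with median-ratio scaling and without 1 library. Among named genes signs changed for NAC080 (0.055 with median-ratio scaling, 0.089 with quantile normalization, -0.25 to 0.12 over the libraries left out) and NAC100 (0.013, 0.12, and -0.23 to 0.055) at recovery. Over the tested genes, deviations of same-numbered libraries from their group means were only weakly correlated (-0.20 to 0.19). This cannot show whether such libraries shared a batch or a harvest. At recovery library 3 was the lowest of its group in both genotypes for SAG13, SAG21, RNS1, BCB and ORE1. The replicate block changed no call of a named gene, and it left all counts within 1.5 times, with 41 higher and 8 lower at recovery.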
